A study of Caenorhabditis elegans with 6 samples.

Results

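The pals genes of the nematode Caenorhabditis elegans encode a large family of proteins that share a divergent sequence signature, and several of them control or accompany the intracellular pathogen response. This is a transcriptional programme that worms mount against microsporidia and the Orsay virus, intracellular parasites of the intestine, and also under prolonged heat or blocked proteasome function. Within it, pals-22 keeps the programme off and pals-25 turns it on, and in a second pair of opposing roles pals-17 represses it while pals-16 and pals-20 promote it. The cullin gene cul-6 and the Skp1-related adaptor genes skr-3, skr-4 and skr-5 belong to a ubiquitin ligase that acts downstream, and eol-1, a relative of mammalian decapping exonucleases, is induced with them.

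The genes described are the 38 whose identifiers in the deposited expression table carry a pals symbol with a number, together with skr-3, skr-4, skr-5, cul-6 and eol-1. They make up 43 of 46778 genes in the table. A level of 1 TPM (transcript abundance per gene length, scaled by the authors so that libraries have about the same sum) in 3 or more of 6 libraries was reached by 16 of the 43, namely 11 pals genes and all of the 5 others. The other 27, all pals genes, lay below it.

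Whole-worm RNA was sequenced from 3 Control libraries and 3 libraries of worms given HLB01. HLB01 is a code name in a study of Vicatia thibetica root extract, ageing, collagen and stress resistance. Strain, stage, dose and duration are not given in the labels. The titles call the treated libraries 3 replicates of HLB01, whereas their agent entries differ, being HLB01, HLB02 and HLB03, and titles were followed. The labels do not say whether replicates were separate cultures, and the p-values cover the spread between these libraries alone, which may be technical.

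Each library summed to 996559 to 997388 TPM, and read counts were not used here, so the depth behind each value is unknown. HLB01 replicate 3 lay apart from the rest over 12590 tested genes, scoring 32.01 on principal component 1 (31.3% of the variance) where the other libraries scored -15.3 to -0.57. It also had the highest ribosomal RNA level, at 4895 TPM against 530 to 2684 TPM elsewhere. Defining markers of the intestine, the main site of intracellular infection, were present, with 11 of 11 matched markers tested.

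The comparison of HLB01 with Control asks whether this antiparasite programme differed in treated worms. None of the 16 pals-module genes that could be tested passed the test in either direction. The whole comparison called 50 genes, which is 0.397% of those tested (limma with a mean-variance trend on log2(TPM + 1), two-sided, Benjamini-Hochberg adjusted p below 0.05 over all 12590 genes). The share called was 0.167% for higher and 0.23% for lower genes, so a count of 0 among 16 is near that background and is no result about these genes. At an unadjusted p below 0.05 there was 1 gene of the 16, skr-5, and 8.32% of all tested genes. The Control and HLB01 ranges overlapped for each of the 16. Groups did not overlap for 13.8% of all tested genes, so with 16 genes this too is no result about them. Without HLB01 replicate 3 there was again no call, and the smallest limma adjusted p among the 16 was 0.572, for pals-22.

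**Figure D1:**
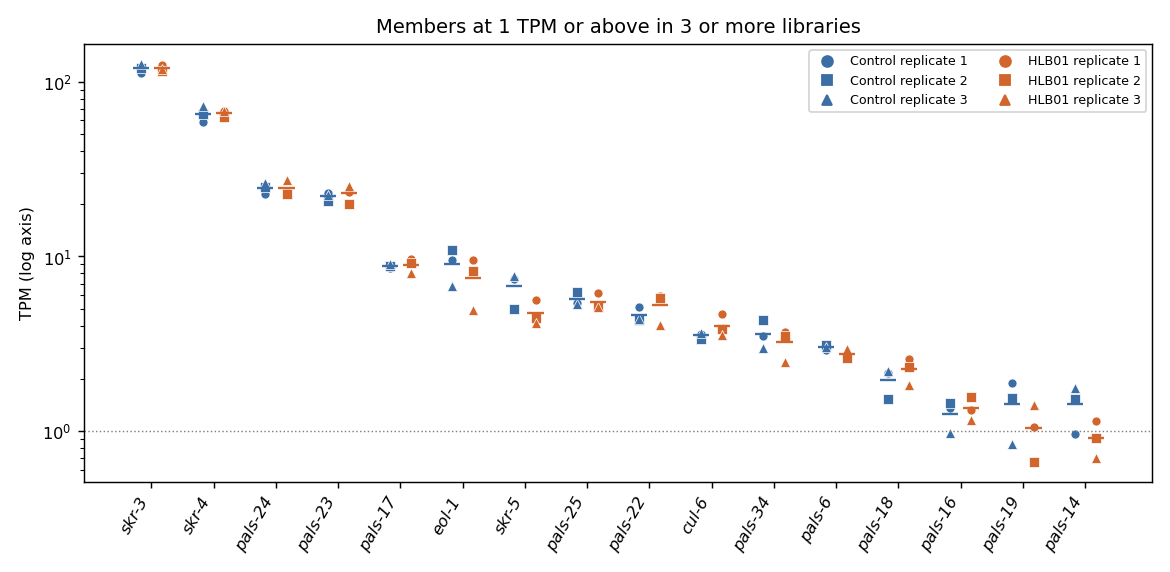
TPM on a log axis for the 16 genes that reached 1 TPM in 3 or more libraries, ordered by mean. Points are libraries, short lines are group means (n = 3 each) and the dotted line marks 1 TPM; the levels run from about 120 TPM for skr-3 (mean 119.5) to about 1 TPM for pals-14 (mean 1.17), and Control and HLB01 points overlap for every gene.

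The antagonists pals-22 and pals-25 lie side by side on the same strand, with 92 bp between them (WBcel235 chromosome III, 132418 to 134401 and 134494 to 137975). Expression of pals-22, the repressor, was 5.17, 4.33 and 4.36 TPM in Control replicates 1, 2 and 3 and 5.93, 5.75 and 4.08 TPM in HLB01 replicates 1, 2 and 3. The HLB01 values thus contained both the highest and the lowest of the 6, and the groups overlapped. Group means of pals-22 were 4.62 ± 0.477 and 5.25 ± 1.02 TPM (mean ± SD, n = 3 each), and the log2 fold change was 0.14 ± 0.15 (± SE; adjusted p = 0.852 in limma). It was 0.29 without HLB01 replicate 3, the library that stood apart, and 0.06 without HLB01 replicate 1.

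Expression of pals-25, the activator, was 5.44, 6.25 and 5.37 TPM in Control and 6.19, 5.12 and 5.16 TPM in HLB01. One library of each group was high and the others were close together. Its log2 fold change was -0.04 ± 0.11 (limma adjusted p = 0.947). The ratio of pals-22 to pals-25 TPM was 0.818 ± 0.129 in Control and 0.957 ± 0.166 in HLB01. It ranged from 0.693 to 0.950 in Control and from 0.791 to 1.12 in HLB01, so the balance between repressor and activator transcripts also overlapped.

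Upstream of this pair, on the same strand, pals-24 and pals-23 were the most abundant pals genes (chromosome III, 120435 to 124690 and 124778 to 127971). Expression of pals-24 was 22.9, 25.1 and 26.4 TPM in Control and 23.5, 22.7 and 27.4 TPM in HLB01. That of pals-23 was 23, 20.8 and 22.6 TPM in Control and 23.5, 19.95 and 25.3 TPM in HLB01. Both were highest in HLB01 replicate 3, and their lowest value was also in HLB01, in replicate 2. The log2 fold changes were -0.02 ± 0.09 for pals-24 and 0.04 ± 0.10 for pals-23 (limma adjusted p = 0.980 and 0.934). On the other strand pals-24 overlaps C29F9.12 by 529 bp, a gene at 5.04 TPM in HLB01 replicate 1 and listed at 0 in the other libraries.

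The second control module lies further along chromosome III. Its repressor gene pals-17 (1390450 to 1391852) was at 8.57, 8.80 and 9.05 TPM in Control and at 9.71, 9.15 and 8.03 TPM in HLB01. The Control libraries were close together and the HLB01 libraries lay on both sides of them. The log2 fold change was 0.02 ± 0.09 (limma adjusted p = 0.973).

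The activator gene pals-16 (1399970 to 1401401) was near the level limit, at 1.36, 1.45 and 0.98 TPM in Control and 1.33, 1.58 and 1.16 TPM in HLB01, a log2 fold change of 0.06 ± 0.14 (adjusted p = 0.943 in limma). Replicate 3 was the lowest in both groups. Its partner activator pals-20 did not reach the limit, with 0.17, 0.60 and 0.33 TPM in Control and 0.21, 0.23 and 0.21 TPM in HLB01, and lies wholly within Y82E9BR.5 on the other strand (group means 1.64 and 1.80 TPM). Repressor transcripts outweighed those of the activators in each library, with pals-17 at 5.79 to 9.23 times the TPM of pals-16. Without a stated strand setting, reads of genes that overlap on opposite strands cannot be told apart.

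Beside pals-16 lie pals-19 and pals-18, for which no role was assumed here and which overlap each other by 53 bp on the same strand. Expression of pals-19 was 1.9, 1.55 and 0.85 TPM in Control and 1.06, 0.67 and 1.42 TPM in HLB01. That of pals-18 was 2.16, 1.53 and 2.22 TPM in Control and 2.60, 2.34 and 1.84 TPM in HLB01. Both groups were widely spread for each gene, and pals-19 had the largest ratio of highest to lowest library of the 16 genes, 2.84. Its log2 fold change was -0.24 ± 0.22 and that of pals-18 was 0.14 ± 0.15 (limma adjusted p = 0.836 and 0.868). With 1 library left out, it ranged from -0.42 without Control replicate 3 to -0.10 without HLB01 replicate 2 for pals-19, and from 0.02 without Control replicate 2 to 0.23 without HLB01 replicate 3 for pals-18.

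Outside chromosome III, only pals-6, pals-14 and pals-34 of the pals genes could be tested. Expression of pals-6 (chromosome I, 13136390 to 13138544) was 2.92, 3.11 and 3.03 TPM in Control and 2.73, 2.62 and 2.94 TPM in HLB01. Only HLB01 replicate 3 reached into the Control range. Relative to its mean this gene varied little between libraries, 1.19-fold from lowest to highest, and its log2 fold change was -0.10 ± 0.10 (limma adjusted p = 0.857).

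Its neighbour pals-14 (13139122 to 13141898) was at 0.97, 1.53 and 1.77 TPM in Control and at 1.1, 0.92 and 0.70 TPM in HLB01. Control replicate 1 lay among the HLB01 values. The log2 fold change was -0.33 ± 0.17 (limma adjusted p = 0.695), the most negative of the pals genes tested, with a 95% interval of -0.74 to 0.08. The level of pals-34 (chromosome V, 7955404 to 7956497) was 3.53, 4.34 and 3.0 TPM in Control and 3.68, 3.53 and 2.48 TPM in HLB01, with replicate 3 lowest in each group (limma adjusted p = 0.880 for a log2 fold change of -0.13 ± 0.17). With 1 library left out, the log2 fold change of pals-34 ranged from -0.23 without Control replicate 3 to 0.00 without HLB01 replicate 3.

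Of the ubiquitin ligase genes cul-6, skr-3, skr-4 and skr-5, the adaptors skr-3 and skr-4 had the highest levels in TPM. Expression of skr-3 (chromosome V, 16121084 to 16122649) was 113, 119 and 126 TPM in Control and 125, 115 and 119 TPM in HLB01. That of skr-4 (19924224 to 19925033) was 58.5, 65.3 and 72.6 TPM in Control and 68.1, 62.8 and 67.7 TPM in HLB01. The HLB01 libraries lay within the Control range for both. Mean skr-3 abundance was above that of 89.6% of tested genes, and skr-3 exceeded skr-4 by a steady 1.74 to 1.92 times in TPM across the 6 libraries.

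The difference between the groups was best bounded for these 2 genes and for the more abundant pals genes. For skr-3 the log2 fold change was 0.00 ± 0.06, with a 95% interval of -0.13 to 0.13, and for skr-4 it was 0.02 ± 0.08, with an interval of -0.17 to 0.21 (limma adjusted p = 0.993 and 0.971). These adaptors and the other Skp1-related genes resemble each other, and the division of reads among similar copies is not described in the labels.

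The third adaptor, skr-5 (chromosome V, 17347902 to 17348723), was at 7.46, 5.03 and 7.72 TPM in Control and at 5.62, 4.44 and 4.18 TPM in HLB01. Control replicates 1 and 3 were above every HLB01 library, and Control replicate 2 lay among them. The means were 6.74 ± 1.48 and 4.75 ± 0.767 TPM, with a log2 fold change of -0.42 ± 0.17 (95% interval -0.82 to -0.01). The difference did not pass over all genes (limma adjusted p = 0.599), and the log2 fold change was -0.35 without HLB01 replicate 3 and -0.59 without Control replicate 2. On the other strand skr-5 overlaps lsy-27, a zinc finger gene, by 59 bp. That gene was at 46.7, 43.4 and 38.01 TPM in Control and 41.4, 37.2 and 29.02 TPM in HLB01, a log2 fold change of -0.26 ± 0.13 (adjusted p = 0.695 in limma), and its part in the skr-5 values was not tested.

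Expression of the cullin gene cul-6 (chromosome IV, 12586485 to 12590451) was 3.60, 3.38 and 3.64 TPM in Control and 4.66, 3.84 and 3.54 TPM in HLB01. The highest value was in HLB01 replicate 1, and HLB01 replicate 3 lay within the Control range. Its log2 fold change was 0.14 ± 0.12 (95% interval -0.14 to 0.41, limma adjusted p = 0.822). Leaving out HLB01 replicate 1 gave 0.05, and leaving out HLB01 replicate 3 gave 0.21. The TPM of skr-3 was 26.8 to 35.3 times that of cul-6, whereas skr-5 was closer to it, with a mean of 5.74 TPM over the 6 libraries against 3.78 TPM for cul-6.

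The decapping-related gene eol-1 (chromosome V, 13979462 to 13980907) was at 9.57, 10.9 and 6.78 TPM in Control and at 9.58, 8.22 and 4.93 TPM in HLB01. Replicate 3 was lowest in both groups, and HLB01 replicate 1 and Control replicate 1 were almost equal. The log2 fold change of eol-1 was -0.25 ± 0.24 (limma adjusted p = 0.844). With 1 library left out, it ranged from -0.43 without Control replicate 3 to -0.01 without HLB01 replicate 3, the library that stood apart.

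**Figure D2:**
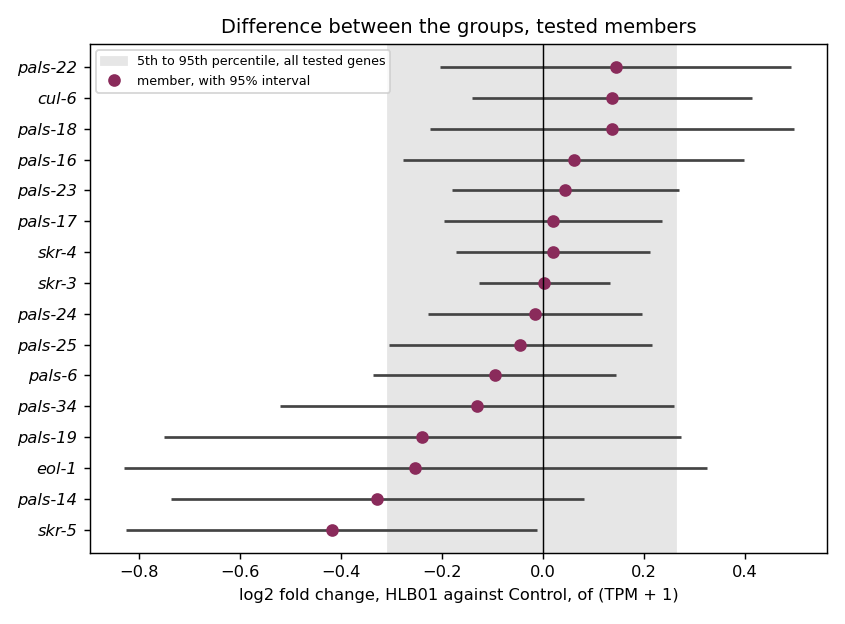
Log2 fold change of (TPM + 1), HLB01 against Control, for the 16 tested genes, with 95% intervals from limma (n = 3 each); grey marks the 5th to 95th percentile of all 12590 tested genes, -0.31 to 0.26. The intervals include 0 for each gene except skr-5, whose interval of -0.82 to -0.01 is not adjusted for the number of genes, and they are narrowest for skr-3.

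As a description of the 16, 8 log2 fold changes were positive and 8 negative, with a median of -0.01, beside a median of 0.00 over all 12590 genes. The summed level of the 11 tested pals genes was 78.8 ± 0.870 TPM in Control and 78.8 ± 3.85 TPM in HLB01. Of this, pals-23 and pals-24 gave 46.9 TPM in Control and 47.5 TPM in HLB01, so the sum rests mainly on that pair. Relative to the Control mean, the median of these 11 genes was 0.05, -0.12 and -0.06 on the log2 scale in HLB01 replicates 1, 2 and 3, and -0.02, 0.03 and 0.00 in the Control replicates. The 3 HLB01 libraries thus lay on both sides of the Control mean.

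The 27 pals genes below the limit include pals-5, the usual reporter gene of the response. Their mean levels ran from 0.005 TPM for pals-13 to 0.932 TPM for pals-31, with a median of 0.18 TPM. No gene was listed at 0 in all 6 libraries, and 17 were above 0 in each library. Expression of pals-5 was 0.36, 0.27 and 0.22 TPM in Control and 0.57, 0.17 and 0.27 TPM in HLB01. HLB01 thus held the highest and the lowest value of pals-5, and all 6 were under 1 TPM.

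Just outside the limit were pals-31, pals-33 and pals-4, each at 1 TPM or above in 2 libraries, and just inside it was pals-14, with 3 such libraries. Expression of pals-31 was 0.56, 2.09 and 0.24 TPM in Control and 0.68, 1.23 and 0.79 TPM in HLB01, and that of pals-33 was 1.32, 1.06 and 0.77 TPM against 0.70, 0.87 and 0.68 TPM. The third highest mean below the limit was that of pals-1, at 0.787 ± 0.325 and 0.767 ± 0.150 TPM. Groups overlapped for pals-31, pals-33 and pals-1.

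Among the 27 genes, the groups did not overlap for 2, pals-37 and pals-7, which were picked out after their values were seen. The same held for 6.43% of the 7895 genes below the limit and above 0 in some library. A count of 2 among 27 is near that share and is no result about these genes. Expression of pals-37 was 0.44, 0.68 and 0.30 TPM in Control and 0.25, 0.11 and 0.19 TPM in HLB01. That of pals-7, next to pals-5, was 0.10, 0.09 and 0.08 TPM in Control and 0.25, 0.19 and 0.15 TPM in HLB01. The group means of the pair lay in opposite directions, at levels far below 1 TPM. With no filter on low values none of the 43 genes passed, and the smallest limma adjusted p was 0.673, for pals-37. Of the 43, 2 reached an unadjusted p below 0.05. The share of all genes at that p without the filter was not worked out, so this count is no result about them.

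**Figure D3:**
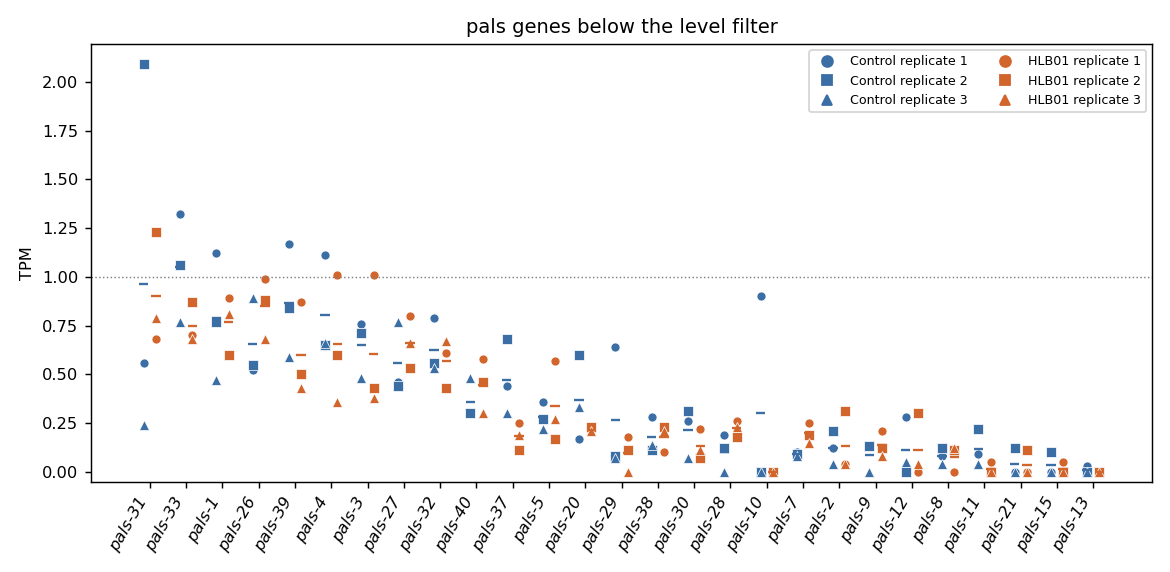
TPM in each library for the 27 pals genes below the limit, ordered by mean; points are libraries, short lines are group means (n = 3 each) and the dotted line marks 1 TPM. Single libraries stand out for pals-31 (2.09 TPM, Control replicate 2) and pals-10 (0.90 TPM in Control replicate 1 and 0 in all others).

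Levels also differed by position on the chromosome, which played no part in choosing the genes and is given as a description. With a gap of at most 20 kb joining neighbours, 33 of the 43 genes fell into 6 neighbourhoods, and 10 stood alone, among them cul-6, eol-1 and the 3 skr genes. The largest neighbourhood held 14 pals genes in 61.3 kb of chromosome I (13083321 to 13144623), of which 2, pals-6 and pals-14, reached the limit. These 2 lie 577 bp apart, next to genes such as pals-9 and pals-15 with means of 0.112 and 0.025 TPM. In the same neighbourhood pals-12 lies wholly within pals-3 on the same strand, and pals-3 overlaps pals-4 on the other strand. How reads were divided among such genes is not described in the labels. On chromosome III, a neighbourhood of 4 genes in 17.54 kb, which holds pals-22 to pals-25, had all 4 above the limit. Another of 7 genes in 29.32 kb, which holds pals-16 to pals-21 and pals-40, had 4 above it.

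Levels thus differed by orders of magnitude within a neighbourhood, from 0.0383 TPM for pals-21 to 8.89 TPM for pals-17 in the last of these. Of all pals genes, 8 of 14 on chromosome III were above the limit, 2 of 15 on chromosome I, 1 of 7 on chromosome V and neither of the 2 on chromosome IV. The summed level of the 14 genes of the chromosome I neighbourhood was 7.85, 7.14 and 6.41 TPM in Control and 7.06, 5.77 and 5.08 TPM in HLB01, with overlapping groups.

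**Figure D4:**
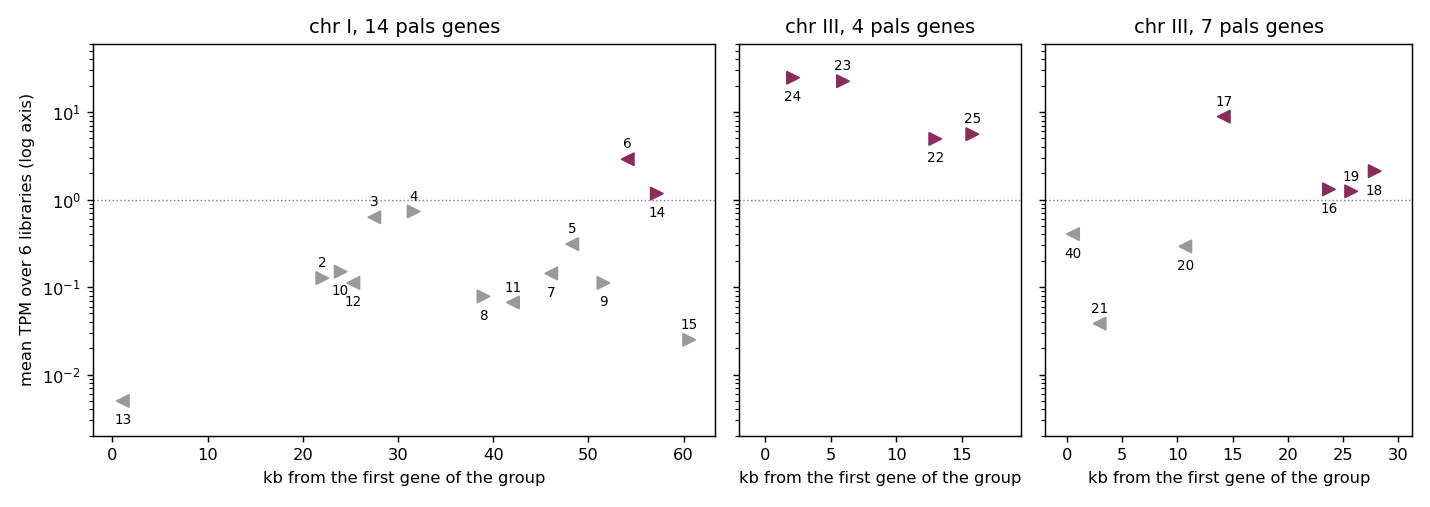
Mean TPM over 6 libraries on a log axis against distance along the chromosome, in kb from the first gene, for the neighbourhoods of 14, 4 and 7 pals genes; labels give the number in each pals symbol, triangles point along the strand, and purple marks genes above the limit. The 4 genes of the middle panel are all above 1 TPM, as are 2 of the 14 on the left and 4 of the 7 on the right.

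The regulators of the response outside the pals family gave no call among 4 tested genes, and none had an unadjusted p below 0.05. Expression of zip-1, a bZIP transcription factor gene required for part of the response, averaged 8.31 ± 0.102 TPM in Control and 9.17 ± 0.661 TPM in HLB01, a log2 fold change of 0.13 ± 0.08 (adjusted p = 0.766 in limma). The STAT-related repressor gene sta-1 averaged 4.37 ± 0.180 and 3.89 ± 0.335 TPM (limma adjusted p = 0.797 for a log2 fold change of -0.13 ± 0.10). The purine nucleoside phosphorylase gene pnp-1, another repressor, was at 77.4 ± 5.06 and 74.3 ± 1.85 TPM (limma adjusted p = 0.852). The viral RNA sensor gene drh-1, related to mammalian RIG-I, was at 15.55 ± 1.21 and 15.5 ± 0.439 TPM (limma adjusted p = 0.988). The 95% interval of the log2 fold change of drh-1 was -0.19 to 0.18.

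Genes listed for cullin ubiquitin ligases in general gave no call either, with 8 of 10 listed genes tested and 1 at an unadjusted p below 0.05. The RING gene rbx-1, for which no place in the cul-6 ligase was assumed here, averaged 454 ± 0.756 TPM in Control and 471 ± 7.88 TPM in HLB01. Its log2 fold change was 0.05 ± 0.03 (adjusted p = 0.753 in limma). The F-box gene fbxa-158, which works with cul-6 and is also in the list of further response genes below, had 3.14, 2.96 and 3.08 TPM in Control and 2.19, 2.64 and 2.22 TPM in HLB01. Its groups did not overlap, nor did those of zip-1, sta-1 and rbx-1, as was the case for 13.8% of all tested genes. Its log2 fold change of -0.28 ± 0.11 did not pass over all genes (limma adjusted p = 0.566). None of 5 other cullin genes passed, adjusted or not, with a median log2 fold change of 0.01; the smallest unadjusted p was that of cul-2 (limma adjusted p = 0.881 for a log2 fold change of 0.03 ± 0.04).

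None of the 16 tested genes of 17 other Skp1-related genes passed, with 5 positive and 11 negative log2 fold changes and a median of -0.13. An unadjusted p below 0.05 was reached by 1, skr-21, at 22.6 ± 1.83 and 18.8 ± 2.62 TPM (limma adjusted p = 0.599). For antiviral RNA interference, 7 of 8 listed genes were tested and none passed, adjusted or not (median log2 fold change 0.03), with drh-3 at 17.98 ± 0.728 and 19.6 ± 1.78 TPM (limma adjusted p = 0.794). Of the purine genes next to pnp-1, 4 of 5 were tested and none passed (median 0.05); 1 had an unadjusted p below 0.05, namely hprt-1, a purine salvage gene, at 64.7 ± 2.19 and 70.9 ± 3.74 TPM (limma adjusted p = 0.599).

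Of 19 listed further genes known to be induced in the response, 18 were matched, and none passed the test. Below the limit were 10 of them, with means of at most 0.585 TPM, of which 3 had a higher and 5 a lower mean in HLB01 and 2 had equal means. The 8 tested genes all had negative log2 fold changes (median -0.28), beside 6454 of 12590 tested genes with a negative one. At an unadjusted p below 0.05 there were 3 of them, all lower, beside 8.32% of all tested genes. The smallest p was that of the tetraspanin gene tsp-1, which was at 12.1, 13.8 and 13.4 TPM in Control and at 7.93, 9.20 and 8.0 TPM in HLB01. Every HLB01 library was below every Control library for tsp-1, with a log2 fold change of -0.58 ± 0.09. Its limma adjusted p was 0.0591, and 0.0484 when only genes at 5 TPM or above in 3 libraries were tested; over all alternatives it ranged from 0.0484 to 0.268.

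The summed level of these 18 genes was 39.2 to 45.5 TPM in Control and 27.2 to 34.55 TPM in HLB01. Much of the difference lay in tsp-1, in its fellow tetraspanin gene tsp-2 (means 10.7 and 8.61 TPM) and in F26F2.5, at 1.76, 0 and 6.64 TPM in Control and 1.66, 0 and 0 TPM in HLB01. Without these 3 genes, which were picked out after their values were seen, the sums were 14.5 to 15.6 TPM and 11.3 to 15.1 TPM and overlapped. Levels of 11 intestine markers, summed, were 3613 to 4000 TPM in Control and 3013 to 3513 TPM in HLB01, most of it from the protease gene asp-1, with 4 positive and 7 negative log2 fold changes (median -0.03) and no marker listed at 0 in all libraries. None of these markers passed, and 3 were lower and 1 higher at an unadjusted p below 0.05. Of the sperm markers 6 of 7 tested were negative (median -0.19), with sums of 96.6 to 133 TPM in Control and 83.6 to 120.3 TPM in HLB01. Of the early embryo markers 5 of 6 were negative (median -0.21), with sums of 343 to 385 TPM and 338 to 364 TPM, and 1 of the 10 listed was at 0 in all libraries. The part of these markers in the values of the response genes was not tested, and in whole worms fewer cells of a type and less RNA per cell cannot be told apart.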

How the data were processed

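The authors deposited TPM per gene and library. The submitters' processing notes name HISAT, RSEM and fastp, and the build WBcel235; versions, annotation release, filters and strand setting are not given in the sources used here. Because TPM sum to a fixed total, abundant transcripts shift all others. Symbols (43818 of 46778 identifiers) and coordinates came from the Ensembl annotation of WBcel235.

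Libraries were grouped by title. Tests used limma 3.58.1 (R 4.3.3), with a mean-variance trend, on log2(TPM + 1) for genes at 1 TPM or above in at least 3 libraries, two-sided, with Benjamini-Hochberg adjustment over all tested genes at 0.05; fold changes on this scale understate those of low genes. Every gene above the limit was named, with the 3 highest below it, the smallest p of each pathway list, and zip-1, pnp-1, drh-1, sta-1 and rbx-1; pals-20 and pals-5 were named for their roles, and fbxa-158, lsy-27 and other neighbours beside a result. Members and lists were chosen with earlier results of these data known. From the list of further response genes, 10 of 29 names proved to be pals genes and were left out, and 6 names over all lists had no match. Marker lists of epidermis, oocyte and germline, sperm and early embryo had 6, 10, 7 and 6 tested genes and no call (median log2 fold changes 0.05, 0.02, -0.19 and -0.21).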

Additional observations from a re-analysis of the deposited data

How the results depend on the processing

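No pals-module gene was called, higher or lower, in any of the 16 alternatives, which covered the limma trend, array weights, pseudocounts of 0.1 and 5, no filter, a filter of 5 TPM, 3 scalings, each library left out and the replicate block. The filter of 5 TPM left 9 pals-module genes to test and no filter left 43, whereas the other settings tested 16. The calls over all genes, 21 higher and 29 lower, became 11 and 16 without the trend, 33 and 47 with array weights, and 9 and 13 with no filter. They were 8 to 12 higher and 11 to 23 lower when a library was left out. One further response gene, tsp-1, was called lower (-0.58) with a filter of 5 TPM, 1 against 0 in the main test, where fewer genes were tested.

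Small log2 fold changes changed sign: with quantile normalization pals-24 was at 0.0104, drh-1 at 0.0097 and skr-3 at -0.0046. With array weights skr-3 was at -0.0064 and skr-4 at -0.0042, and drh-1 was at 0.0036 when scaled to the total without the 50 most abundant genes. With a library left out, skr-3 ranged from -0.0393 to 0.0439, pals-34 from -0.23 to 0.0042, skr-4 from -0.058 to 0.0954, pals-23 from -0.0275 to 0.137, pals-24 from -0.0946 to 0.0355, pals-25 from -0.121 to 0.015, pals-16 from -0.0329 to 0.122, pals-17 from -0.0344 to 0.0887 and drh-1 from -0.0656 to 0.0376. None of these values passed, and the cause was not tested. Whether replicate numbers pair the samples is not stated in the labels. Correlations of deviations were -0.01, 0.04 and 0.13 for same-numbered libraries and -0.16 to 0.14 for differently numbered ones. So few libraries cannot decide it. With a replicate block 17 genes were higher and 31 lower, and no pals-module gene was called. The scalings moved the median of all genes by at most 0.0101. With 3 libraries a group and no read counts, the precision of genes near or under 1 TPM is limited and its share due to counting is unknown.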

Other observations

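Among the Skp1-related genes other than skr-3, skr-4 and skr-5, replicate 3 was the lowest library in both groups for 10 of 16 tested genes (62.5%), beside 18.9% of all 12590 tested genes. This was noticed after the values were seen, and whether same-numbered replicates share more than a number is not known. Skp1-related genes resemble each other, and the division of reads among similar copies is not described, so the 10 genes may not be independent. For skr-7, the values were 166, 153 and 124 TPM in Control replicates 1, 2 and 3 and 148, 137 and 98.96 TPM in HLB01 replicates 1, 2 and 3. For skr-14, they were 94.3, 84.1 and 63.4 TPM in Control and 85.0, 78.3 and 51.7 TPM in HLB01. Of the 16 tested genes of the pals module, 3 likewise had replicate 3 lowest in both groups (18.8%). These were pals-34, pals-16 and eol-1, while skr-3 was highest in Control replicate 3.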
